A study of Mus musculus with 6 samples.

Results

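Metabotropic glutamate (mGlu) receptors and Homer proteins were examined through 9 genes of the 37620 in the deposited table, chosen by symbol. Of these, 6 encode receptors (Grm2, Grm3, Grm4, Grm5, Grm7 and Grm8) and 3 encode Homer proteins (Homer1, Homer2 and Homer3). RNA came from the pre-limbic cortex (PLc), an area on the medial wall of the frontal lobe, of C57Bl/6 mice that were 9 weeks old. In the ketamine group, 3 mice were injected i.p. with 30 mg/kg once a day for 5 days, and in the saline group 3 mice were injected with vehicle on the same schedule. Tissue was taken 2 days after the last injection, and each mouse gave 1 library of whole dissected tissue. Mice are named by their labelled numbers, which are 1, 6 and 10 for saline and 3, 5 and 9 for ketamine. Values are normalized counts, that is reads per gene after scaling each library by its own size factor.

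The mGlu receptors are G-protein-coupled receptors for glutamate. Group I receptors, such as the product of Grm5, act through Gq and phospholipase C and lie mostly around the postsynaptic density. Group II (Grm2, Grm3) and group III (Grm4, Grm7, Grm8) receptors act through Gi/o and lower cAMP, and many of them sit on axon terminals, where they limit glutamate release. Homer proteins bind the tails of group I receptors and tie them to Shank scaffolds and to intracellular calcium channels. The short, activity-induced form of Homer1, Homer1a, lacks the part that links Homer molecules together, and gene-level counts do not separate it from the long forms.

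The libraries held between 26273436 and 32643726 reads, and every member had at least 186 reads in every mouse. That lowest count, of Homer3 in saline mouse 6, has an exact 95% Poisson interval of 160.2 to 214.7 reads, which covers counting error only. The libraries differed in their content of other regions and cell types. Saline mouse 10 stood apart from the other saline mice, with 408227 summed normalized counts over 10 oligodendrocyte markers, against 60867 in saline mouse 1 and 47787 in saline mouse 6. Ketamine mice 3, 5 and 9 lay between, at 173898, 113027 and 124977, all above saline mice 1 and 6. Saline mouse 10 also had 1821 normalized counts of Slc6a3, the dopamine transporter gene, against at most 102 in any other mouse. Summed markers of striatal medium spiny neurons (20 genes tested) were 71269 and 36201 in ketamine mice 3 and 5, 11480 in ketamine mouse 9, and between 9459 and 11915 in saline mice. The striatal marker Isl1 was at 0 in saline mice 1 and 6 and at 29.65 in saline mouse 10. In ketamine mice 3, 5 and 9 it was at 387, 135 and 1.81. Other striatal markers were not at 0 in saline mice 1 and 6, among them Ppp1r1b (2133 and 1769) and Drd1 (237 and 215). Summed olfactory bulb markers (14 genes, Slc6a3 among them) were between 2037 and 14864 in ketamine mice and between 336 and 2896 in saline mice. The 2896 was that of saline mouse 10, of which 1821 came from Slc6a3 and 611 from Th. The 15 cortical excitatory markers were present in all mice, with sums of 123643 to 200000.4 in ketamine mice and 197062 to 259004 in saline mice. GABAergic markers (10 genes) summed to 36262 to 55551 in ketamine mice and 26817 to 31266 in saline mice. Thalamus markers (11 genes) summed to 3545 to 10297 in ketamine mice and 2277 to 4894 in saline mice, and choroid plexus markers (6 genes) to 248 to 836 and 122 to 3144. The 3144 belonged to saline mouse 10, and 2421 of it came from Ttr. Of the thalamus sum in ketamine mouse 9, the highest, 7274 normalized counts came from Calb2, which interneurons also express. The sums of 12 astrocyte, 8 microglia and 7 endothelium markers overlapped between the groups, at 109486 to 144556, 11533 to 13641 and 6345 to 6932 in ketamine mice and 120905 to 147728, 11493 to 13703 and 6254 to 7635 in saline mice. The part of these differences in the results that follow was not tested. In such bulk tissue, fewer cells of a type and less RNA per cell cannot be told apart.

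Between ketamine and saline, Grm4 was the member with a separation of the groups, being higher in every ketamine mouse. The other 8 members overlapped, and the lowest or highest value of several belonged to saline mouse 10. Log2(normalized count + 1) was compared with limma in 16127 genes whose mean over the 6 mice reached 10 normalized counts, a filter that all 9 members passed. At an adjusted p under 0.05, limma called 0 of the 9 members, against a background of 0% of genes tested. At an unadjusted p under 0.05 it found 1 member, where the background was 5.81% of genes. On reads recovered from the table, DESeq2 called 1 member, Grm4, with 1.13% of genes called in all. The quasi-likelihood test of edgeR called 0 members and 0% of all genes. Every ketamine mouse was above every saline mouse for 1 member, where 5.69% of genes stood so, and every ketamine mouse was below every saline mouse for 0 members, where 4.66% of genes stood so. Of the 9 members, 3 had a higher mean log2 value in ketamine mice and 6 a lower one. Their median log2 fold change was -0.25, beside -0.01 over all genes tested.

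**Figure D1:**
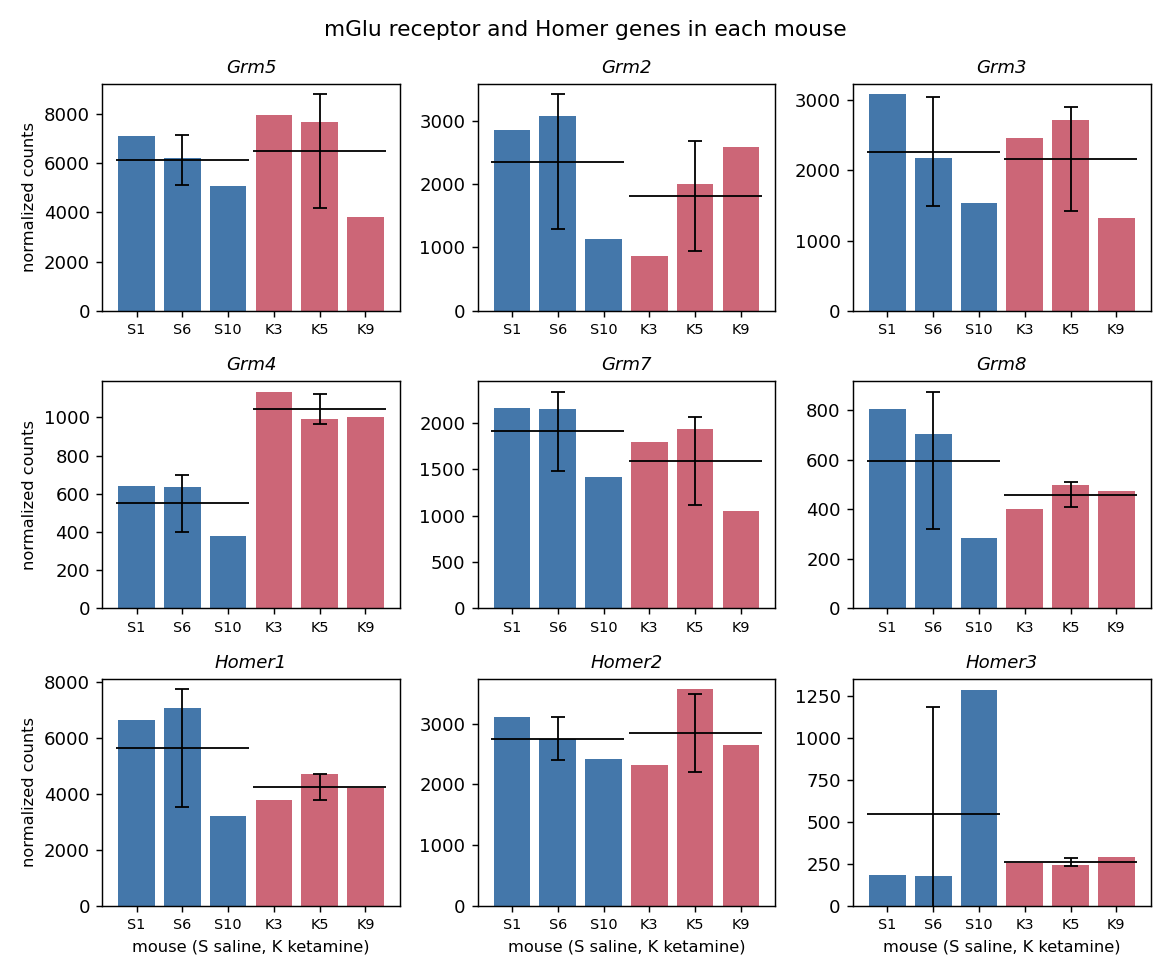
Normalized counts of the 9 genes in each mouse (bars, from 0), with saline mice S1, S6 and S10 in blue and ketamine mice K3, K5 and K9 in red. The horizontal line is the group mean and the error bar its SD (n = 3), which is cut at 0 for Homer3 in saline mice. Grm4 is the panel in which all red bars stand above all blue bars, and S10 is the tall bar for Homer3.

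Grm4 encodes mGlu4, a group III receptor that is best known from presynaptic terminals in the cerebellum and basal ganglia. The gene (ENSMUSG00000063239) lies on chromosome 17 (mm9, minus strand) between bases 27559332 and 27650286, and GENCODE annotates no other gene over it. In the saline group, mice 1, 6 and 10 had 639.9, 633 and 377 normalized counts, while the ketamine values (mice 3, 5 and 9) were 1134, 993 and 1003. The ketamine mice were close to each other and all above the highest saline mouse. The means were 549.9 ± 150.05 in the saline group and 1043 ± 78.4 in the ketamine group (SD, n = 3 each). On the log2 scale the difference was 0.96 (standard error, SE, 0.224, 95% interval 0.43 to 1.49) by limma, where p was 0.00339 before and 0.401 after adjustment, so it did not pass the threshold. The estimate from DESeq2 was 0.93 (SE 0.248, adjusted p = 0.0199) and that from edgeR 0.94 (adjusted p = 0.388), so that the call depended on the tool. The exact two-sided permutation test gave p = 0.1, the smallest that 3 mice against 3 allow. With each mouse left out in turn the log2 fold change lay between 0.71 and 1.09, the lowest being without saline mouse 10. Beside these values, striatal markers were at 71269, 36201 and 11480 and olfactory bulb markers at 3019.8, 2037 and 14864 summed normalized counts in ketamine mice 3, 5 and 9. Their part in the Grm4 values was not tested.

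The other group III genes did not share this pattern. Grm8, which encodes the presynaptic receptor mGlu8, lies on chromosome 6 (minus strand) between bases 27225121 and 28085178 and shares 96 exon bases with Mir592 on its own strand, a gene at 0 counts. It had 805, 705 and 282 normalized counts in saline mice 1, 6 and 10, beside 401, 499 and 476 in ketamine mice 3, 5 and 9. The ketamine mice lay between saline mouse 10 and the other saline mice. Its log2 fold change was -0.25 (SE 0.38, limma adjusted p = 0.999), and without saline mouse 10 it was -0.72 (SE 0.169, limma unadjusted p = 0.00486 and adjusted p = 0.261). Grm7 encodes mGlu7, a receptor of low glutamate affinity in the active zone of terminals. It lies on chromosome 6 (plus strand) between bases 110595575 and 111517224 and shares 130 exon bases with a gene annotated on the other strand. Its normalized counts were 2161, 2154 and 1418 in the saline mice and 1798, 1932 and 1053 in the ketamine mice, in the same order of mice as before. Saline mouse 10 and ketamine mouse 9 were the low mice of their groups. For Grm7 the log2 fold change was -0.28 (SE 0.276, limma adjusted p = 0.999), with a 95% interval from -0.93 to 0.37. It was -0.01 without ketamine mouse 9 and -0.49 without saline mouse 10.

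Group II genes differed more within the groups than between them. Grm2, which encodes mGlu2, an autoreceptor on cortical and thalamic glutamatergic terminals, lies on chromosome 9 (minus strand) between bases 106546868 and 106558440. It had 2845, 3079 and 1138 normalized counts in saline mice 1, 6 and 10. Ketamine mice 3, 5 and 9 had 870.2, 2003 and 2577. Saline mouse 10 and ketamine mouse 3 were low, and the groups overlapped. The log2 fold change of -0.38 (SE 0.503, limma adjusted p = 0.999) lay between -0.84 and 0.08 with each mouse left out, the negative end being without saline mouse 10 and the positive end without ketamine mouse 3.

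Grm3 encodes mGlu3, which is found in astrocytes as well as neurons and also responds to the peptide N-acetylaspartylglutamate (NAAG). It lies on chromosome 5 (minus strand) between bases 9485236 and 9725352. Its normalized counts were 3081, 2171 and 1541 in saline mice 1, 6 and 10, beside 2462, 2710.3 and 1321 in ketamine mice 3, 5 and 9. The means of 2264 ± 774 and 2164 ± 741 (SD, n = 3 each) differed by less than the SD of either group. The log2 fold change was -0.08 (SE 0.341, limma adjusted p = 0.999).

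Grm5 encodes mGlu5, the main group I receptor of forebrain neurons, and lies on chromosome 7 (plus strand) between bases 94750952 and 95283417. It had 7102, 6204 and 5050.4 normalized counts in saline mice 1, 6 and 10, beside 7957, 7638 and 3817 in ketamine mice 3, 5 and 9. The highest and the lowest values both belonged to ketamine mice, of which mouse 9 was the low one. The log2 fold change was 0.02 (SE 0.299, limma adjusted p = 0.999), and its 95% interval of -0.68 to 0.72 leaves room for a difference in either direction. Ketamine mouse 9 was also the lowest of the 6 mice for Grm3 and Grm7. Grm6, a group III gene of retinal bipolar cells, had at most 2.9 normalized counts in any mouse and was not tested.

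Homer1 (ENSMUSG00000007617) was the Homer gene with the highest group means, and its value in saline mouse 10 lay apart from the other saline mice. It lies on chromosome 13 (mm9, plus strand) between bases 94073712 and 94174917. In the saline group, mice 1, 6 and 10 had 6636, 7063 and 3225 normalized counts, while the ketamine values (mice 3, 5 and 9) were 3778, 4717 and 4232. The ketamine mice were below saline mice 1 and 6 and above saline mouse 10. The levels were 5641 ± 2103 in saline and 4242.5 ± 469 in ketamine (SD, n = 3 each), and the log2 fold change was -0.33 (SE 0.299, limma unadjusted p = 0.3 and adjusted p = 0.999). Without saline mouse 10 it was -0.70 (SE 0.151, 95% interval -1.06 to -0.33, limma unadjusted p = 0.00327 and adjusted p = 0.251). Arc is an immediate-early gene whose product binds in the postsynaptic density. It had 803, 1671 and 6824 normalized counts in the saline mice and 2558, 6371 and 3246 in the ketamine mice. Arc was highest in saline mouse 10, where Homer1 was lowest. Its log2 fold change was 0.84 (SE 0.743, limma adjusted p = 0.999). Without saline mouse 10 it was 1.70 (SE 0.462, limma unadjusted p = 0.00969 and adjusted p = 0.295).

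Homer3, the least abundant Homer gene outside saline mouse 10, lies on chromosome 8 (plus strand) between bases 72806726 and 72818260. It shares 874 exon bases with Ddx49 on the other strand, so without strand information reads from those bases cannot be told apart. Homer3 had 183, 179.5 and 1283 normalized counts in saline mice 1, 6 and 10, beside 255, 243 and 287 in ketamine mice 3, 5 and 9. A single library, saline mouse 10, thus stood 7.08-fold above the mean of the other saline mice, and the SD of the saline group (636) exceeded its mean (548). Ddx49 did not share this, at 808, 828 and 803 normalized counts in the saline mice and 720.4, 850.4 and 915 in the ketamine mice. Summed markers of several lists were above the mean of the other saline mice in saline mouse 10. The ratio was 17.46 for choroid plexus, 7.6 for olfactory bulb, 7.51 for oligodendrocyte and 2.07 for thalamus markers. Most of the olfactory bulb sum of 2896 in saline mouse 10 came from Slc6a3 (1821) and Th (611). Most of its choroid plexus sum of 3144 came from Ttr (2421). Relative to the mean of saline mice 1 and 6, oligodendrocyte markers were also higher in ketamine mice 3, 5 and 9, by 1.68, 1.06 and 1.20 on the log2 scale. Olfactory bulb markers were higher there by 2.99, 2.42 and 5.29, and choroid plexus markers by 2.215, 0.46 and 1.945. Different genes mainly carried the choroid plexus sums of saline mouse 10 and of these ketamine mice. In the latter, Clic6 was at 562, 109 and 48.95 normalized counts and Aqp1 at 45.03, 26.34 and 403. Ttr was at 21.54, 11.29 and 118 there, and Kcnj13 at 20.56, 16.93 and 59.82. In saline mice 1 and 6, Ttr was at 2.87 and 116 and Kcnj13 at 37.36 and 32.81. Homer3 was higher by 0.49, 0.42 and 0.66. The part of these markers in the values of Homer3 was not tested. The log2 fold change was -0.41 (SE 0.713, limma adjusted p = 0.999), and it was -1.07 with DESeq2 (adjusted p = 0.9999). Without saline mouse 10 the sign turned, to 0.52 (SE 0.174, limma unadjusted p = 0.0222 and adjusted p = 0.374).

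Homer2, which encodes a long Homer form, was the member with the narrowest interval. It lies on chromosome 7 (minus strand) between bases 88745367 and 88851811 and had 3109, 2745 and 2409 normalized counts in saline mice 1, 6 and 10. The ketamine values, for mice 3, 5 and 9, were 2323, 3565 and 2653. Its log2 fold change was 0.03 (SE 0.19, limma adjusted p = 0.999), with a 95% interval from -0.42 to 0.48.

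The start regions of Homer1 and Homer3 are shown because these were the Homer genes whose levels moved in opposite directions in saline mouse 10, and because Homer1 is known as an activity-regulated gene. Each runs from 250 bases before to 50 bases after the annotated start and comes from RefSeq on GRCm38.p6, a later build than the mm9 of the counts. The sequences are written 5′ to 3′ on the gene's strand, and capitals mark TGACG or its reverse complement CGTCA, the core of the cAMP response element. They are chr13:93303507-93303806 (plus strand) and chr8:70282749-70283048 (plus strand).
Homer1: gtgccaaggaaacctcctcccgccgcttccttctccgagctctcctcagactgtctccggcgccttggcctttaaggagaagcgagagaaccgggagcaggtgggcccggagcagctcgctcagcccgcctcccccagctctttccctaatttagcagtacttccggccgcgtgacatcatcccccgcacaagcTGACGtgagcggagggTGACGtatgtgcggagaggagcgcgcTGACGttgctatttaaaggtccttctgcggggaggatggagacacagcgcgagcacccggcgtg
Homer3: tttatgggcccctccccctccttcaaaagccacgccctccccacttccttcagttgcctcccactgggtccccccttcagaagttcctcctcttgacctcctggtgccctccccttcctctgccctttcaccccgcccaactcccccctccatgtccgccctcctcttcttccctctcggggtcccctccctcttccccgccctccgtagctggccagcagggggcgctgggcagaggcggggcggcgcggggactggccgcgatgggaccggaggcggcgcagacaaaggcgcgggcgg

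The Homer1 window held 3 matches, which begin 56, 40 and 14 bases before the start, and the Homer3 window held none. Of the pair of Homer1 start sites, the one with more matches is shown, and the other held none. Among all 32851 promoters in the RefSeq table, 20.8% held at least 1 match on either strand and 1.03% held 3 or more. In all, 7 of the 9 members had an entry, with 12 start sites between them, and 2 of those held a match, 1 of the pair of Homer1 start sites and 1 of Grm8. The full palindrome TGACGTCA, which contains both, was in 0 of the 12, beside 1.79% of all promoters. Grm4 and Grm5 had no entry.

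Saline mouse 10 bore on more than Homer3. Relative to the mean of saline mice 1 and 6, it was lower by at least 1.5-fold for 6 members and higher by as much for 1, so that 7 of 9 members were past this fold, beside 20.6% of all genes tested. The ratio was 0.374 for Grm8, 0.384 for Grm2, 0.471 for Homer1, 0.587 for Grm3, 0.592 for Grm4 and 0.657 for Grm7. It was 0.759 for Grm5 and 0.823 for Homer2.

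When saline mouse 10 was left out, a comparison whose overlaps were counted after its values had been seen, all ketamine mice were above both remaining saline mice for 2 members, Grm4 and Homer3. The background for this was 15.1% of genes. All ketamine mice were below both for 4 members, Grm2, Grm7, Grm8 and Homer1, where 16.7% of genes stood so. In the limma fit without this mouse, 4 members had an unadjusted p under 0.05 (Grm4, Grm8, Homer1 and Homer3), beside 11% of genes, and none passed after Benjamini-Hochberg adjustment, the smallest adjusted p being 0.231, that of Grm4. The direction of Grm4 was the same with this mouse (0.96) and without it (0.71), whereas that of Homer3 was not.

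**Figure D2:**
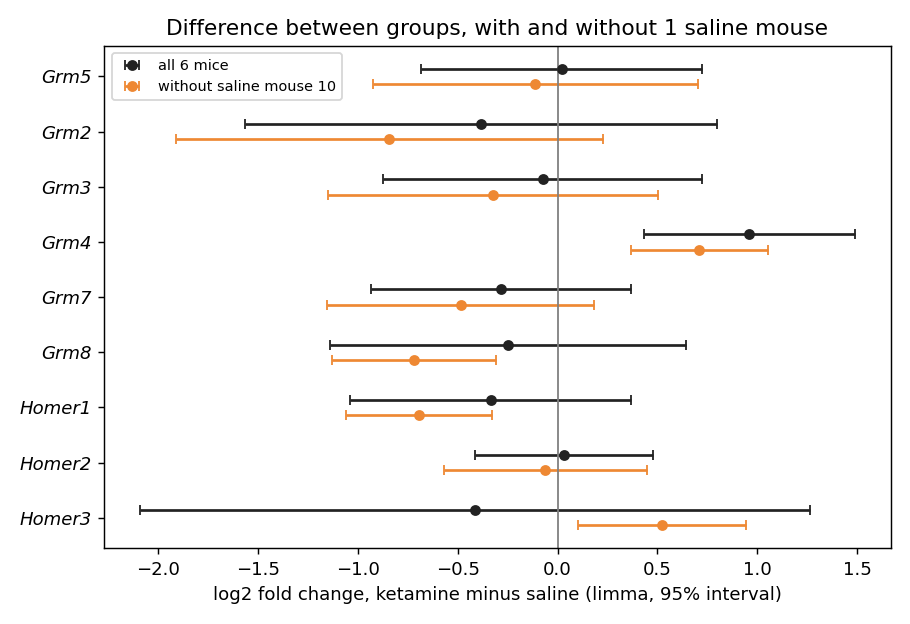
Log2 fold change of each gene, ketamine minus saline, with its 95% interval from limma, for all 6 mice (black) and without saline mouse 10 (orange). The Grm4 intervals lie above 0 in both fits, and that of Homer3 moves from a span of -2.09 to 1.26 to one of 0.10 to 0.95. Without saline mouse 10, the intervals of Grm8 (-1.13 to -0.31) and Homer1 (-1.06 to -0.33) lie below 0. The intervals are not adjusted for the number of genes, and no member passed the adjusted threshold in either fit.

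The level of each member in relation to the markers of other tissue can be read mouse by mouse. In ketamine mice 3, 5 and 9, Homer1 stood at -0.86, -0.54 and -0.69 on a log2 scale relative to the mean of saline mice 1 and 6, and summed cortical excitatory markers stood at -1.04, -0.34 and -0.68 on the same scale. Both were lowest in mouse 3 and highest in mouse 5. This order was not particular to Homer1, as Grm8 (-0.91, -0.60 and -0.66) and Homer2 (-0.33, 0.28 and -0.14) had it too. Grm4 stood at 0.83, 0.64 and 0.66, and summed GABAergic markers at 0.99, 0.37 and 0.76. Both were highest in mouse 3 and lowest in mouse 5, though Grm4 was nearly equal in mice 5 and 9. Oligodendrocyte (1.68, 1.06 and 1.20) and choroid plexus markers (2.215, 0.46 and 1.945) had this order too, so it was not particular to GABAergic markers. In saline mouse 10, Homer1 stood at -1.09 and the cortical excitatory markers at -0.37, while the GABAergic markers were at 0.16 and Grm4 at -0.76. These values are a description of 6 mice, and their relation was not tested.

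**Figure D3:**
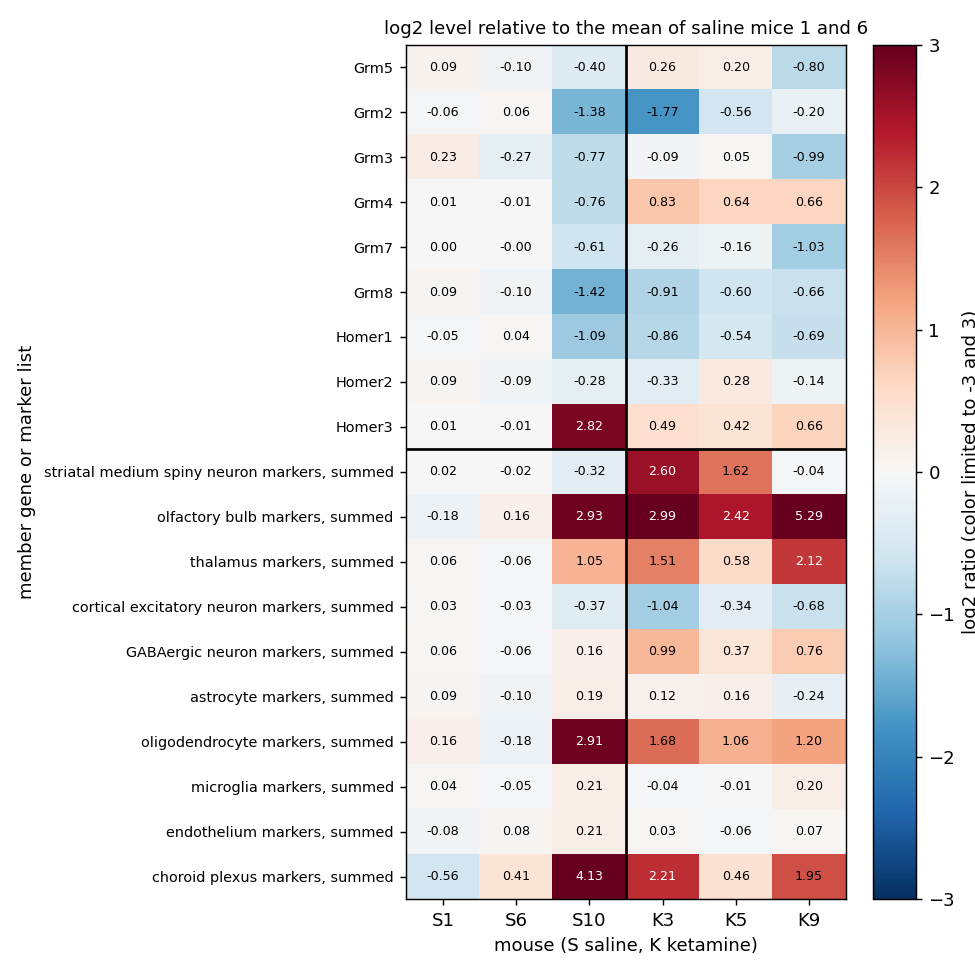
Log2 level of each member (rows above the line) and of summed marker lists (rows below) in each mouse, relative to the mean of saline mice 1 and 6. Numbers give the log2 ratio, and the color scale is capped at both ends. In S10 the members are low except Homer3 (2.82), and summed choroid plexus (4.13), olfactory bulb (2.93) and oligodendrocyte (2.91) markers are high. The choroid plexus sum of S10 is mostly Ttr, and its olfactory bulb sum mostly Slc6a3 and Th.

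Levels were compared between genes per kilobase of annotated exon (the union of GENCODE exons, between 3.32 kb for Grm2 and 11.3 kb for Homer1). Among saline mice the order of mean levels was Grm5 (758 ± 127 normalized counts per kb, SD, n = 3), Grm2 (709 ± 319), Grm3 (633 ± 216), Homer1 (497 ± 185), Grm7 (325 ± 72.6), Homer2 (247 ± 31.4), Homer3 (159 ± 185), Grm4 (103 ± 28.2) and Grm8 (76.1 ± 35.3). The ranges of every pair of neighbours in this order overlapped among the saline mice, so adjacent places are not separated beyond their spread. Homer1 was above Grm7, its neighbour, in 6 of 6 mice, and Grm4 above Grm8 in 6 of 6. By ketamine means, Grm3 (605 ± 207) stood above Grm2 (547 ± 262) and Grm4 (196 ± 14.7) above Homer3 (76.1 ± 6.7), in the reverse of their saline order. Mouse by mouse these pairs did not reverse between the groups. Grm4 was above Homer3 per kb in saline mice 1 and 6 (120.3 and 119, against 53.2 and 52.2) and below it in saline mouse 10 (70.8 against 373), which alone set the saline order. Grm3 was above Grm2 in saline mice 1 and 10 and in ketamine mice 3 and 5.

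As a share of the 6 receptor genes per kb, Grm4 made up 3.78%, 4.14% and 4.05% in saline mice 1, 6 and 10. In ketamine mice 3, 5 and 9 its share was 8.51%, 6.47% and 9.21%. The share was higher in all ketamine mice, but it uses the same Grm4 counts that separated the groups and is not an independent result. Saline mouse 10 did not stand out in it, since its summed receptor level was low too. That sum was 1746 per kb, against 3187 and 2877 in saline mice 1 and 6. No background was computed for such shares. The share of Grm2 varied most, from 10.5% in ketamine mouse 3 to 37.9% in ketamine mouse 9. Grm5 made up 23.1% to 39.3% over the 6 mice, Grm3 18.03% to 27.5%, Grm7 8.75% to 13.8% and Grm8 2.04% to 3.22%.

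Among the 3 Homer genes per kb, Homer1 held 63.8% and 67.6% in saline mice 1 and 6 but 32.6% in saline mouse 10, and 51.6% to 54.1% in ketamine mice. Homer2 held 30.4%, 26.7% and 24.7% in the saline mice, and 33.8%, 39.7% and 34.3% in the ketamine mice, so that all ketamine mice were above all saline mice. Homer3 held 5.80%, 5.67% and 42.7% in the saline mice and 8.75% to 12.1% in the ketamine mice. The summed Homer level per kb was 917, 921 and 873 normalized counts in saline mice 1, 6 and 10, beside 616, 806 and 695 in ketamine mice 3, 5 and 9. The groups did not overlap in this sum, although saline mouse 10 reached it through Homer3 (373 per kb, beside 284 for Homer1). No background was computed for sums or shares of this kind, so none stands beside these separations or that of the Homer2 share. Among single genes, 5.69% were above in all ketamine mice and 4.66% below. The summed receptor level overlapped, at 3187, 2877 and 1746 in the saline mice and 2506, 2885 and 2046 in the ketamine mice.

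**Figure D4:**
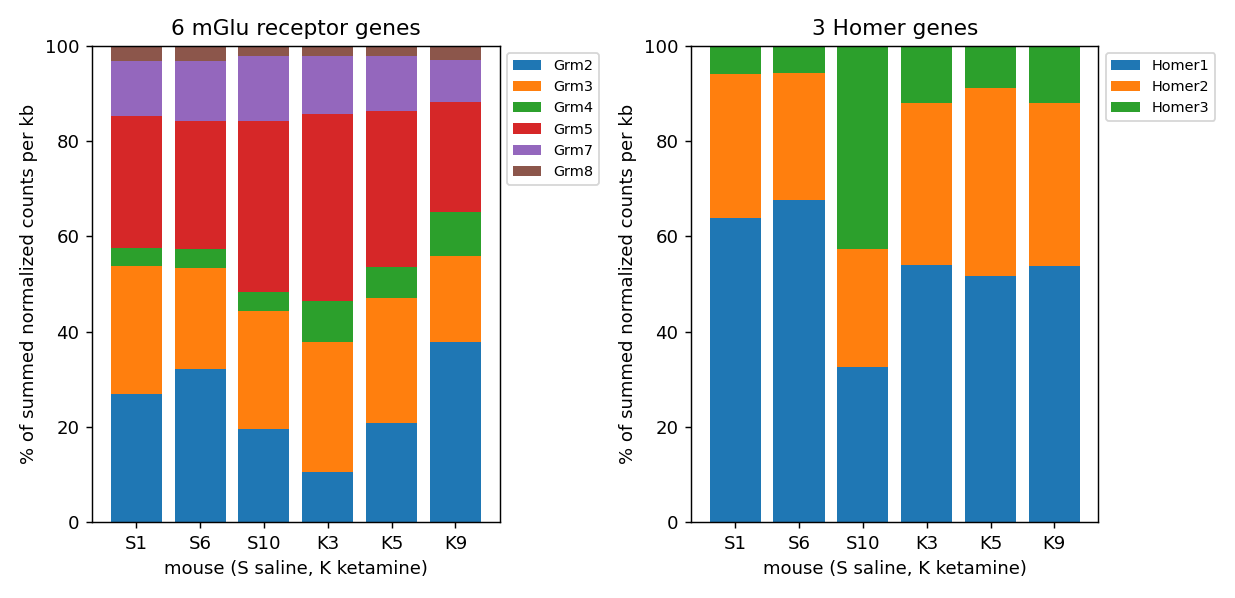
Share of each gene in the summed normalized counts per kb of the 6 receptor genes (left) and the 3 Homer genes (right), in each mouse (S saline, K ketamine). Grm4 takes 6.47% to 9.21% in K3, K5 and K9, and Homer3 takes 42.7% in S10.

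Genes that work with these receptors were read from the same limma fit, in lists for signalling, scaffolding and glutamate supply. No list had a gene with an adjusted p under 0.05 by limma, and DESeq2 and edgeR also called 0 of their genes. In the Gq and phospholipase C list, through which group I receptors signal, 4 of 20 genes tested were higher and 16 lower, with a median log2 fold change of -0.28, where 7572 of all 16127 genes were higher and 8555 lower. Without ketamine mouse 9 that median was -0.13, and without saline mouse 10 it was -0.43. At an unadjusted p under 0.05, 0 genes of the list were higher and 3 lower, beside 3.44% of all genes higher and 2.37% lower. Among them were Dagla, the main synthase of the endocannabinoid 2-arachidonoylglycerol in neurons, and Dgkz, a diacylglycerol kinase. Dagla had 4264, 3835 and 3860.0 normalized counts in saline mice 1, 6 and 10, beside 2326, 3090.4 and 1676 in ketamine mice 3, 5 and 9, all below the saline mice (log2 fold change -0.80, SE 0.221, limma adjusted p = 0.578). Dgkz had a log2 fold change of -0.61, and its groups overlapped.

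In the Gi/o list, through which group II and III receptors signal, 5 of 13 genes were higher and 8 lower (median -0.10, and between -0.20 and -0.03 with each mouse left out). The smallest p was that of Gng2, a G-protein gamma subunit, with 5844, 5617 and 6146 normalized counts in the saline mice and 4573, 4372 and 3564 in the ketamine mice, and a log2 fold change of -0.50 (SE 0.14, limma adjusted p = 0.579). It was followed by Kcnj6 (-0.98) and Kcnj9 (-0.47), which encode GIRK potassium channel subunits that Gi/o-coupled receptors open, and whose groups overlapped. In the list of Homer partners and postsynaptic scaffold, 2 of 16 genes were higher and 14 lower (median -0.26), and 0 had an unadjusted p under 0.05. This median rested largely on 1 library, being -0.03 without ketamine mouse 9, and it was -0.41 without saline mouse 10 and -0.46 without ketamine mouse 5. The smallest p-values were those of Frmpd4 (-0.61), whose product Preso1 joins Homer to mGlu5, Ryr2 (-0.80), a ryanodine receptor gene, and Dlgap1 (-0.33), a Shank-binding scaffold gene.

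Among proteins that bind or regulate the receptors, 6 of 20 genes were higher and 14 lower (median -0.12, and between -0.13 and -0.03 with each mouse left out). Rgs2, which speeds the turn-off of Gq, had 1353.5, 1396.5 and 1348.5 normalized counts in the saline mice and 2137, 1537 and 1725 in the ketamine mice (log2 fold change 0.38, SE 0.15, limma adjusted p = 0.811). Grk2, a kinase that desensitizes receptors, had a log2 fold change of -0.33, and Camk2a, which is also a marker of cortical excitatory neurons, one of -0.60. In the list of glutamate and NAAG supply, 9 of 16 genes were higher and 7 lower (median 0.08, which turned to -0.02 without ketamine mouse 3 and was 0.17 without ketamine mouse 9). Gls2, a glutaminase, had 740.5, 834 and 824 normalized counts in the saline mice and 503, 663 and 566 in the ketamine mice (log2 fold change -0.48, SE 0.15, limma adjusted p = 0.675). Slc1a3, an astrocyte glutamate transporter, had 16449, 15088 and 14556 in the saline mice and 19559, 18816 and 18797 in the ketamine mice (0.31, SE 0.132, limma adjusted p = 0.86). Beside these values, summed cortical excitatory markers were at 123643 to 200000.4 in ketamine mice and 197062 to 259004 in saline mice, and their part was not tested.

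**Figure D5:**
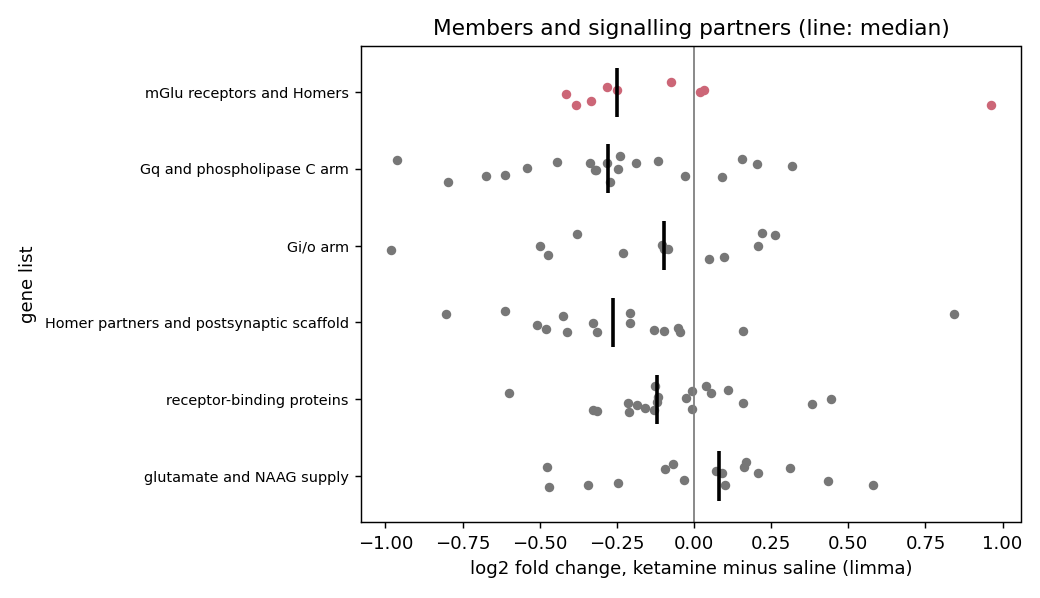
Log2 fold change, ketamine minus saline, of each gene (points, spread vertically for sight) in the 9 members and 5 lists of partners, with the median of each list as a black line. The point at 0.96 among the members is Grm4, and the medians lie between -0.28 and 0.08.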

How the data were processed

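RNA of the PLc from 3 saline and 3 ketamine mice was sequenced with paired-end reads. Per the submitters' processing notes and methods, the authors aligned them to mm9 with TopHat2 2.0.11 and counted them per gene with HTSeq. The file deposited by the authors holds 1 signal value for every gene and mouse, the count scaled by a DESeq2 size factor. Annotation, strand setting and filters are not given in the sources used here. Dividing by the smallest step of each library gave whole reads for 100.0% of values (tolerance 0.006). Columns were matched to samples by mouse number, and the numbers of the groups differ, so no pairing was made. Whether mice shared a litter or a preparation day is not stated, so p-values measure the spread between these samples.

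Log2(normalized count + 1) was fitted with limma 3.58.1 (trend in the prior variance, R 4.3.3) over all 16127 genes with a mean of at least 10, with two-sided p-values adjusted by Benjamini-Hochberg at 0.05. Fold changes on this scale understate those of low genes. Recovered reads were tested with edgeR 4.0.16 and DESeq2 1.42.0. All 3 tools were checked on simulated reads. Coordinates and exon lengths are those of GENCODE M1 (mm9). Named are the 9 members, Grm6, and the 3 genes of each partner list with the smallest p, of which some are not reported here. Arc, Slc6a3, Th, Isl1, Ppp1r1b, Drd1, Calb2, Ttr, Clic6, Aqp1, Kcnj13, Ddx49 and all comparisons without saline mouse 10 beyond the planned refits were chosen after values were seen. The members and lists were chosen with earlier results of these data known.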

Additional observations from a re-analysis of the deposited data

How the results depend on the processing

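The count of genes called was 0 with limma and stayed at 0 with pseudocounts of 0.1 and 5, without a filter, with a filter of 100, with either other scaling, without the trend and with edgeR. It was 182 with DESeq2, of which 1 was a member, and between 0 and 1 with each mouse left out (1 without ketamine mouse 5 and 1 without ketamine mouse 9). The count of members called was 0 in each of those fits except DESeq2. Members whose groups did not overlap numbered between 1 and 6 with each mouse left out, 6 without saline mouse 10 and 2 without ketamine mouse 9. Without saline mouse 10, 15.1% of all genes had every ketamine mouse above and 16.7% every ketamine mouse below. This share was not computed with the other mice left out. Directions turned only when a mouse was left out. The log2 fold change then lay between -0.17 and 0.36 for Grm5, -0.84 and 0.078 for Grm2, -0.32 and 0.25 for Grm3, -0.72 and 0.034 for Grm8, -0.14 and 0.17 for Homer2, and -0.89 and 0.52 for Homer3. Grm4, Grm7 and Homer1 had the same sign in each of the 15 alternatives, but with each mouse left out Grm7 ranged from -0.49 to -0.01, the latter without ketamine mouse 9, and Homer1 from -0.70 to -0.13, the latter without saline mouse 6. Grm4 ranged from 0.71 to 1.09. The median of the glutamate and NAAG supply list turned from 0.08 to -0.02 without ketamine mouse 3, and that of the Homer partners went from -0.26 to -0.03 without ketamine mouse 9. The causes were not tested. The lowest member count was 186 reads.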
